A study of Mus musculus with 44 samples.

Results

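The comparison described here set the hippocampus of 15-month-old C57BL/6J mice on methionine restriction (15M-MR, 8 libraries) against that of 15-month-old C57BL/6J mice on the control diet (15M-CD, 8 libraries), 16 of the 44 libraries of the series. The other groups, used for the shared estimate of the spread and for the same diet contrast at other ages, were 5M-MR with 7 libraries, 5M-CD with 6, 18M-MR with 7 and 18M-CD with 8. MR is read as methionine restriction, the diet that the series title names, and CD as its control diet. The labels state neither the methionine content of the diets, nor how long they were fed, nor the sex of the mice, and they record no drug, surgery or genotype other than the strain. Total RNA of the hippocampus was sequenced on the BGI-500 platform, and the values are FPKM (fragments scaled to transcript length and to the mapped total) of assembled loci. Of 13218 loci in the table, 12403 reached 1 FPKM or more in 6 or more libraries out of 16 and were tested, and 815 were left out. Among the tested loci 8684 carried 1 gene symbol and 2835 none. FPKM hold no read counts, so the depth of a library and its counting error are unknown, and in whole tissue fewer cells of a type and less RNA per cell cannot be told apart. Differences are 15M-MR minus 15M-CD in log2(FPKM + 1), where the added 1 shrinks changes of weakly expressed genes, and levels are in FPKM.

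Methionine is an essential amino acid that cells turn into S-adenosylmethionine, the donor of methyl groups for DNA, RNA and histones. The homocysteine left over is methylated back to methionine or passed through transsulfuration to cysteine and glutathione. When amino acids are scarce, uncharged tRNA activates the kinase GCN2, the factor ATF4 is made, and genes for amino acid transport and synthesis are transcribed. Methionine restriction is known to raise the hormone FGF21 from the liver, which acts on cells that carry an FGF receptor together with the co-receptor beta-Klotho. The hippocampus serves the formation of memories and loses plasticity with age. The series title links methionine restriction to cognitive ageing through FGF21, and the comparison at 15 months asks what differs between the diets in the hippocampal transcriptome at that age.

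ATF4 reaches part of its targets through an amino acid response element, for which the letters TGATGNAAN were searched on both strands in the 250 bases before each RefSeq start site (GRCm38.p6). Of the 20 ATF4 targets tested here, 17 had a promoter in the RefSeq table and 5 of these held the letters, which 3.44% of all 32851 windows held. The promoters of Asns, which makes asparagine, Aars, which charges tRNA with alanine, and Nupr1, a stress-response gene, are printed because the levels of these genes are given below as readouts of the amino acid response. Capitals mark the match, each sequence runs 5′ to 3′ along the gene's strand, and a match is a description of letters and not of binding. The windows lie at chr6:7693210-7693459 on the minus strand for Asns, chr8:111033592-111033841 on the plus strand for Aars and chr7:126625471-126625720 on the minus strand for Nupr1.
Asns: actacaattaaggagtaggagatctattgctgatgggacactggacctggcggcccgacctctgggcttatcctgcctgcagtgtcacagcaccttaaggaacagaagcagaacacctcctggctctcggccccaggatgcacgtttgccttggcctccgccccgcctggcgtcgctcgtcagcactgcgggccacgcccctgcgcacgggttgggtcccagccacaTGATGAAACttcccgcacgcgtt
Aars: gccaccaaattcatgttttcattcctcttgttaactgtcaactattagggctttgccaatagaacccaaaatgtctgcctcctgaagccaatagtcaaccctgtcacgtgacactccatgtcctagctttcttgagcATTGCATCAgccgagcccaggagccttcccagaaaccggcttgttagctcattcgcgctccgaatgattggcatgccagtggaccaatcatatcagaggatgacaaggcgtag
Nupr1: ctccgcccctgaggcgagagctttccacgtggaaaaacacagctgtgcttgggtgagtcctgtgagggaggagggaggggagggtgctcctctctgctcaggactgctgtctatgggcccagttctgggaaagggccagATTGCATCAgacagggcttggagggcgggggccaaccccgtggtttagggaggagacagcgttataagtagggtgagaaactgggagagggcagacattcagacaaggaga

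Within the 16 libraries, 5 stood apart from the other 11. They were 15M-MR 3, 5 and 8 and 15M-CD 7 and 8, with scores of 23.1 to 49.4 on the first principal component (23.7% of the variance), against −34.7 to 0.209 in the other 11. In these 5 libraries loci without a gene symbol held 7.02% to 8.43% of the FPKM sum, against 4.26% to 6.39% in the other 11, and the mitochondrial rRNA loci held 5.22% to 5.78%, against 6.92% to 8.88%. All 8 libraries of 15M-MR were labelled lane 4, while of 15M-CD 3 were labelled lane 4 and 5 lane 3, and all 5 libraries that stood apart were on lane 4. Values within lane 4 thus set 8 libraries of 15M-MR, of which 3 stood apart, against 3 of 15M-CD, of which 2 stood apart. The part of these libraries and of the lane in the results was not tested beyond the values given beside them. The diets did not differ past the test in any of 5 library measures. Loci without a symbol held 6.23% ± 1.21 in 15M-MR and 5.9% ± 1.48 in 15M-CD (SD, n = 8 each, 2-sided exact permutation p = 0.625, adjusted p = 0.814 over the 5 measures). The number of tested loci listed at 0 was 299 ± 47.5 in 15M-MR and 271 ± 47.4 in 15M-CD (SD, n = 8 each, exact permutation p = 0.258, adjusted p = 0.814). Within lane 4, where 8 libraries met 3, the smallest exact permutation p of the 5 measures was 0.261 (adjusted p = 0.576), and the design could go down to 0.00606.

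**Figure D1:**
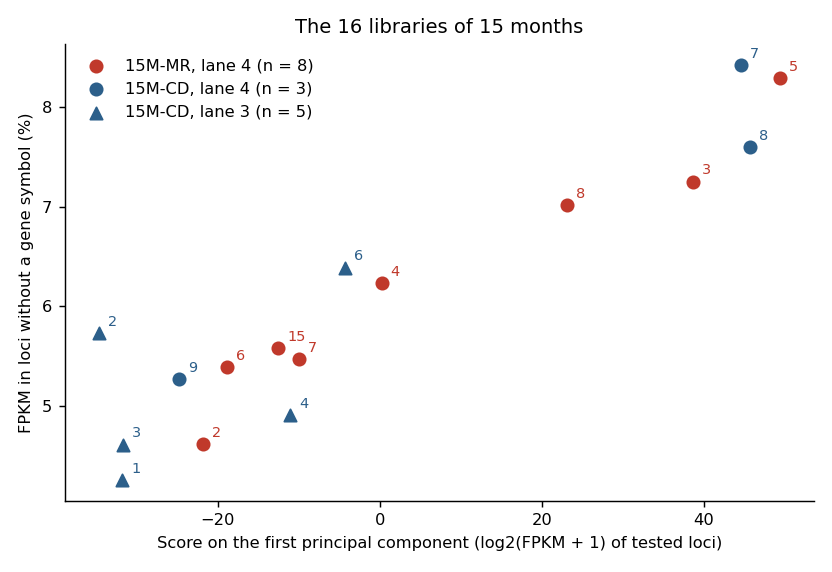
The first principal component of log2(FPKM + 1) over the tested loci (x axis) against the percentage of a library's FPKM in loci without a gene symbol (y axis), with 1 point per library, red for 15M-MR and blue for 15M-CD, circles for lane 4 and triangles for lane 3, numbered by replicate. The 5 libraries at scores of 23.1 and above, 3 of 15M-MR and 2 of 15M-CD, all hold 7.02% or more.

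No locus passed the test between 15M-MR and 15M-CD. Of 12403 loci, 0 had an adjusted p under 0.05 in limma (0% called), and the smallest adjusted p was 0.289. At an unadjusted p under 0.05 there were 276 loci (2.23%), of which 117 had the higher mean in 15M-MR (0.943%) and 159 the lower (1.28%). In no locus did all 8 libraries of 15M-MR lie above, or all below, all 8 of 15M-CD (0% each). The differences were centred near 0, with a median of 0.0079 and 6435 loci above 0. Within lane 4, 0 loci were called by limma and 308 had an unadjusted p under 0.05 (2.48%), and without the 5 libraries that stood apart 0 were called and 284 had one (2.29%). Leaving out 15M-MR 15 gave 1 locus past the test, without a gene symbol (limma adjusted p = 0.0172), and array weights, which count libraries by how well they fit their group, gave the same locus (adjusted p = 0.0232).

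The intervals, whose spread was estimated over all 44 libraries, give the precision of the difference between group means, with no allowance for the lane. The 95% interval of a difference reached a median of 0.46 to either side (10th to 90th percentile, 0.24 to 0.79), and in 84.7% of loci it lay within 1 of 0. It lay within 0.5 of 0 in 38.5% of loci. Precision followed the level of the gene. Among the 1983 loci with a mean of at least 20 FPKM the median reach was 0.29, a ratio of 1.22 in FPKM + 1, and 75.4% of intervals lay within 0.5. Among the 5913 loci under 5 FPKM it was 0.55, a ratio of 1.47, and 12.8% lay within 0.5. The share of loci with an unadjusted p under 0.05 was 0.807% at 20 FPKM and above, 1.8% between 5 and 20 FPKM and 3.03% under 5 FPKM. Many low loci switched between libraries of the same diet. In all, 1440 loci were listed at 0 in at least 1 but not all of the 16 libraries, and 2443 were under 0.3 FPKM in some library and at 2 FPKM or more in another.

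**Figure D2:**
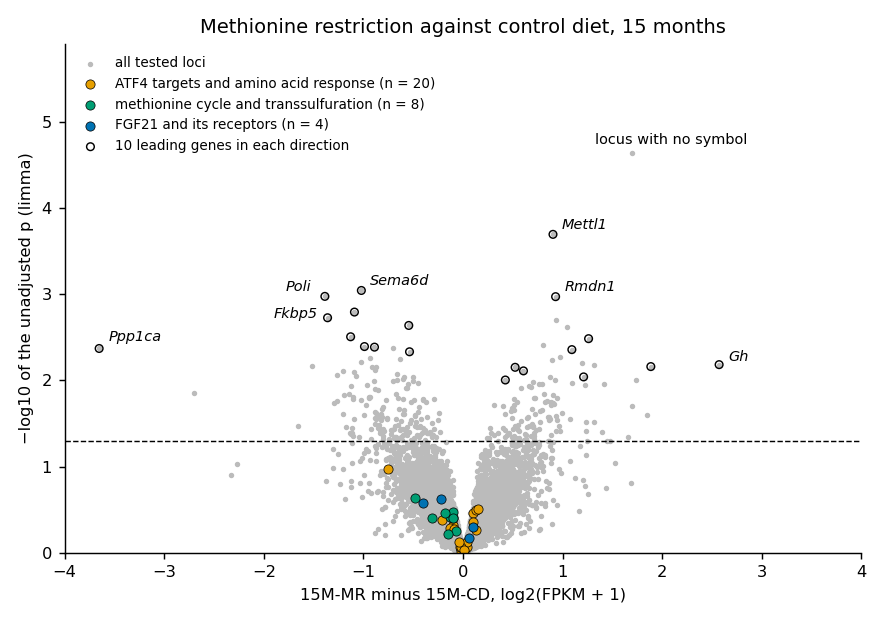
Each point is 1 of 12403 loci, with the difference 15M-MR minus 15M-CD in log2(FPKM + 1) on the x axis and −log10 of the unadjusted limma p on the y axis, and the dashed line marks an unadjusted p of 0.05. Colours mark the tested members of 3 gene lists (20 ATF4 targets, 8 genes of the methionine cycle, 4 of FGF21 and its receptors, Kl included), all of which lie under the line. Rings mark the 10 leading genes in each direction, none of them past the adjusted test.

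The genes named next lead the comparison by their unadjusted p, and none passed the test, with an adjusted limma p of 0.999 for each of the 20. On the higher side Mettl1, the enzyme that puts 7-methylguanosine into tRNA (chr10:127041414-127046365, plus strand, GRCm38), came first. Mettl1 had 2.38 FPKM in the lowest, 3.19 in the median and 5.21 in the highest library of 15M-MR, against 0.567, 1.26 and 2.89 FPKM in 15M-CD. The groups overlapped, although all 8 libraries of 15M-MR lay above the mean of 15M-CD. The difference was 0.90 (SE 0.222), with 1.42 within lane 4 and 0.54 without the 5 libraries that stood apart. The locus with the smallest p of all (limma adjusted p = 0.289) has no gene symbol. It was listed at 0 in all 8 libraries of 15M-CD and in 15M-MR 15, and at 1.55 to 3.6 FPKM in the other 7 libraries of 15M-MR.

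In 5 of the 10 leading genes on the higher side, some library of 15M-CD was under 0.3 FPKM. Magi2, a scaffold protein of synapses, had 3.93, 5.05 and 6.55 FPKM as lowest, median and highest value in 15M-MR, against 0, 1.95 and 6.01 FPKM in 15M-CD. In 15M-CD 4 libraries were under 0.3 FPKM and 4 lay between 3.72 and 6.01 FPKM, beside a difference of 1.26 (SE 0.405). Ppox, the enzyme of haem synthesis that oxidises protoporphyrinogen, was listed at 0 in 1 library of 15M-MR and in 6 of 15M-CD, with 1.22 to 4.93 FPKM in the other libraries of 15M-MR and 3.3 to 4.62 FPKM in those of 15M-CD.

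Gh, the gene of growth hormone, had the largest difference among the 10 (2.57, SE 0.9), and it varied widely within 15M-MR. In 15M-MR the lowest library had 0.4, the median 7.11 and the highest 1562 FPKM, against 0.167, 0.816 and 6.81 FPKM in 15M-CD. Only 15M-MR 2, 4, 5 and 7 exceeded every library of 15M-CD, and the other 4 lay within their range. Without 15M-MR 7 the difference of Gh was 1.604. Efr3b, which anchors a phosphatidylinositol kinase at the cell membrane, had 1.95, 9.61 and 11.9 FPKM as lowest, median and highest value in 15M-MR, against 0.361, 2.73 and 12.8 FPKM in 15M-CD. Both the lowest and the highest library belonged to 15M-CD. Setd3, which methylates a histidine of actin, was expressed at a higher level, with 15.5, 18.5 and 20.8 FPKM in 15M-MR, against 7.2, 12.9 and 19 FPKM in 15M-CD. Its difference was 0.52 (SE 0.185) and 0.39 within lane 4, and the groups overlapped. Rmdn1, a microtubule-associated protein, Ccdc92 and Ptp4a2, a protein tyrosine phosphatase, differed by 0.93, 0.61 and 0.43. Without the 5 libraries that stood apart the difference of Rmdn1 was 0.46, without an unadjusted p under 0.05, and that of Ccdc92 was 0.97. Ptp4a2 stands on 2 loci, and the difference of the leading locus was −0.03 within lane 4. Its other locus, with a median of 24.4 FPKM in 15M-MR and 24.3 in 15M-CD, differed by 0.04 (SE 0.0743) over all libraries.

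On the lower side Sema6d, a semaphorin that guides axons, came first. Sema6d had 0, 0.876 and 3.01 FPKM as lowest, median and highest value in 15M-MR, against 1.29, 2.68 and 4.77 FPKM in 15M-CD. The groups overlapped, and 7 of 8 libraries of 15M-MR lay below the mean of 15M-CD. The difference was −1.02 (SE 0.286), −1.12 within lane 4. Poli, an error-prone DNA polymerase, was listed at 0 in 7 libraries of 15M-MR and at 0.156 FPKM in the other, against 0 in 2 libraries of 15M-CD and 1.51 to 3.55 FPKM in the other 6. Capg, which caps actin filaments, was under 0.3 FPKM in 5 libraries of 15M-MR and between 1.82 and 2.36 FPKM in the other 3, against 1.28 to 3.59 FPKM in 15M-CD. The difference of Capg was −1.09 over all libraries and −0.66 without the 5 that stood apart. In 6 of the 10 leading genes on the lower side some library of 15M-MR was under 0.3 FPKM, and Rad1, a subunit of the DNA damage clamp, was another of them.

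Fkbp5, a co-chaperone that restrains the glucocorticoid receptor and is itself induced by glucocorticoids (chr17:28399094-28517527, minus strand), was divided into levels within both groups. It had 0.182, 0.475 and 5.67 FPKM as lowest, median and highest value in 15M-MR, against 0.561, 5.22 and 5.67 FPKM in 15M-CD. In 15M-CD 7 libraries lay between 5.02 and 5.67 FPKM and 15M-CD 7 at 0.561, while in 15M-MR 5 libraries lay between 0.182 and 0.507 FPKM and the other 3 at 1.83, 3.1 and 5.67. The difference was −1.36 (SE 0.41), with −0.92 within lane 4 and −1.80 without the 5 libraries that stood apart. Fkbp5 stands on 2 loci, and the second was listed at 0 in 6 libraries of each group. Of 8 tested genes on the list of glucocorticoid-induced genes, 0 had an unadjusted p under 0.05 and their median difference was 0.04, against 0.0079 over all loci. Fkbp5 was not among these 8, since genes on more than 1 locus were left out of the counts of the lists. The median of that list was 0.15 within lane 4 and 0.16 without the 5 libraries that stood apart, with 7 of 8 genes above 0 in both.

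The better-expressed genes on the lower side were Chn1, Rab5c and Ppp1ca. Chn1, a neuronal GTPase-activating protein for Rac (chr2:73610660-73775346, minus strand), had 30, 45.9 and 58.1 FPKM as lowest, median and highest value in 15M-MR, against 43.4, 122 and 189 FPKM in 15M-CD. In 15M-CD 3 libraries, at 43.4 to 54.7 FPKM, lay within the range of 15M-MR and 5 lay above 100. The difference was −1.13 (SE 0.36), −1.53 within lane 4. Rab5c, a GTPase of early endosomes, had 17, 24.6 and 29.4 FPKM in 15M-MR, against 23.8, 38.8 and 48.2 FPKM in 15M-CD, a difference of −0.54 (SE 0.168). All 8 libraries of 15M-MR lay below the mean of 15M-CD, and 2 libraries of 15M-CD lay within their range. Ppp1ca, a catalytic subunit of protein phosphatase 1, was listed at 0 in 5 libraries of 15M-MR and at 51.7 to 71.5 FPKM in the other 3, against 51.2 to 69.6 FPKM in 15M-CD. Its second locus had 54.8 to 75.8 FPKM in 15M-MR and 53.9 to 73.5 FPKM in 15M-CD, so that the first locus alone carried the difference of −3.65 and the value is uncertain. Sln, the sarcolipin of muscle, and Dynlt1a, a dynein light chain with near-identical copies nearby that could share its reads, completed the 10 with −0.99 and −0.54. All 20 leading genes kept their sign and an unadjusted p under 0.05 when any 1 of the 16 libraries was left out. The 20 were chosen by their p in these same libraries, which favoured that outcome in advance. Within lane 4, 19 of the 20 kept their sign and 9 an unadjusted p under 0.05, and without the 5 libraries that stood apart 20 and 16 did. Differences that were smaller by more than 1.5 times within lane 4 included those of Ccdc92 (0.39), Rad1 (−0.53) and Sln (−0.32).

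**Figure D3:**
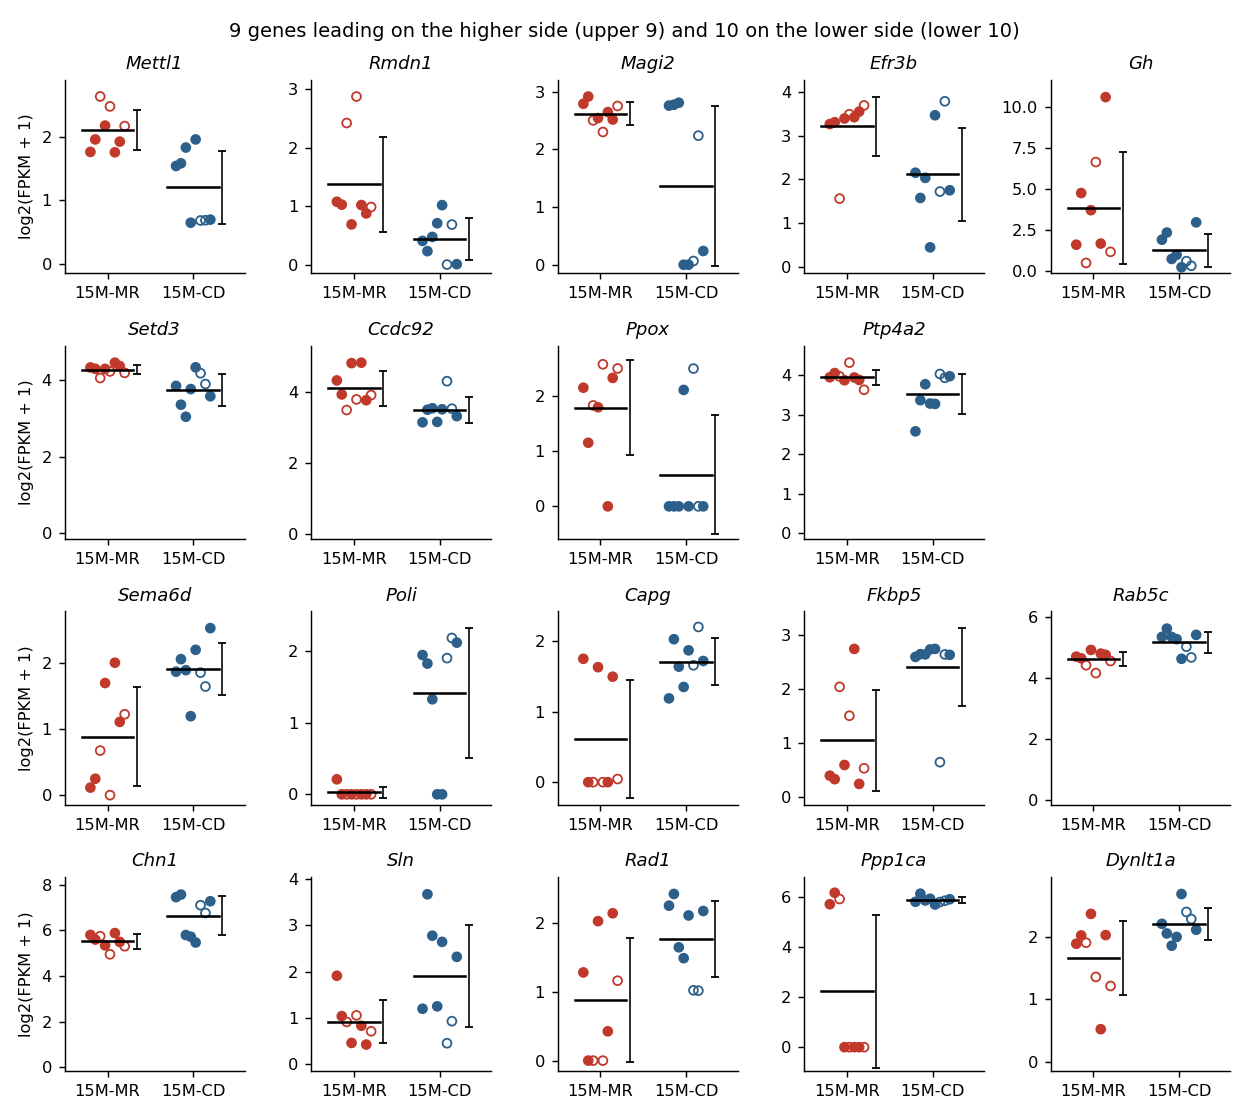
Log2(FPKM + 1) of each library in 15M-MR (red, left) and 15M-CD (blue, right) for 9 leading genes on the higher side (upper 2 rows) and 10 on the lower side (lower 2 rows). The horizontal bar is the mean of 8 libraries, the whisker is ± 1 SD, and open circles are the 5 libraries that stood apart, with overlap of the groups in every panel and split levels within a group for Magi2, Ppox, Poli, Capg and Ppp1ca.

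Of the list of FGF21 and its receptors, 4 genes were tested, Fgfr1, Fgfr2, Fgfr3 and the related co-receptor gene Kl. Fgf21 itself and Klb, the gene of beta-Klotho, are not analysed here. The receptor Fgfr1, which FGF21 uses in brain, had 7.36, 8.41 and 10.4 FPKM as lowest, median and highest value in 15M-MR, against 6.61, 8.13 and 9.43 FPKM in 15M-CD. The ranges lay almost on each other, and the difference was 0.06 (95% interval −0.23 to 0.36). Fgfr3, the receptor of astrocytes, averaged 8.51 ± 0.852 FPKM in 15M-MR and 7.89 ± 1.16 in 15M-CD (SD, n = 8 each), a difference of 0.10 (−0.21 to 0.42). Fgfr2, a receptor of glia, averaged 2.91 ± 0.783 FPKM in 15M-MR and 3.53 ± 0.773 in 15M-CD (SD, n = 8 each), a difference of −0.22 (−0.60 to 0.15). Kl, the gene of alpha-Klotho, which serves FGF23 and is strong in choroid plexus, had a difference of −0.40 (−1.12 to 0.32), with −0.24 within lane 4, and was listed at 0 in 2 libraries of 15M-MR. None of the 4 had an unadjusted p under 0.05. Of 6 tested feedback and adaptor genes of FGF receptors, the adaptor Frs2 alone had an unadjusted p under 0.05 (−0.43, SE 0.196), with 0.448, 4.01 and 5.37 FPKM in 15M-MR and 3.29, 4.28 and 4.85 in 15M-CD. Only 15M-MR 5 and 7 lay under 1 FPKM. All 6 had the lower mean in 15M-MR, with a median of −0.15 against 0.0079 over all loci, but within lane 4 only 4 of 6 did, with a median of −0.03.

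In the methionine cycle 8 of 19 listed genes were tested, and none had an unadjusted p under 0.05. All 8 had the lower mean in 15M-MR (median −0.14), also after quantile normalization and after centring each library on its median, but within lane 4 only 3 of 8 did (median 0.02). Mat2b, the regulatory subunit of the enzyme that makes S-adenosylmethionine, had 14, 21.9 and 27.2 FPKM as lowest, median and highest value in 15M-MR, against 15.8, 23.6 and 28.4 FPKM in 15M-CD. The difference was −0.13 (95% interval −0.43 to 0.17). Ahcy, which splits S-adenosylhomocysteine, averaged 7.3 ± 1.16 FPKM in 15M-MR and 7.72 ± 1.23 in 15M-CD (SD, n = 8 each), a difference of −0.07 (−0.31 to 0.17). Its relatives Ahcyl1 and Ahcyl2 differed by −0.10 (−0.31 to 0.11) and −0.18 (−0.55 to 0.20). Cbs, the first enzyme of transsulfuration, was low and variable, with 0, 0.696 and 3.53 FPKM in 15M-MR, against 0, 1.94 and 4.15 FPKM in 15M-CD, a difference of −0.48 (−1.28 to 0.32), with −0.21 within lane 4. Adi1 and Enoph1 of the methionine salvage pathway differed by −0.10 (−0.34 to 0.13) and −0.15 (−0.74 to 0.43).

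Neighbouring pathways likewise held no gene past the test. Of 6 tested genes of folate metabolism 0 had an unadjusted p under 0.05, and the folate carrier Slc19a1 had the smallest p (−0.70, SE 0.393). The median of the folate list was −0.04 over all libraries and 0.09 within lane 4. Of 13 genes of glutathione and hydrogen sulfide metabolism 0 had one, with a median of 0.03, and 0.09 within lane 4. Genes of DNA, histone and RNA methylation were counted in 2 lists. These lists were not limited to enzymes, nor to those that use S-adenosylmethionine. Of 12 genes of DNA and histone methylation 0 had an unadjusted p under 0.05 (median −0.06), and of 8 genes of RNA methylation 0 did (median −0.04). Within lane 4, 11 of the 12 genes of DNA and histone methylation were below 0 (median −0.33), against 7 of 12 over all libraries. The median of the RNA methylation genes turned to 0.07. The tRNA enzyme Mettl1, described above, was not on the lists.

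ATF4 targets lay close to 0. Of 20 tested, 0 had an unadjusted p under 0.05, 9 were above 0 and 11 below, and the median was −0.02. Asns, whose promoter is printed above, had 18.2, 25.8 and 29.5 FPKM as lowest, median and highest value in 15M-MR, against 20.1, 26.5 and 31.5 FPKM in 15M-CD. The ranges overlapped almost wholly, and the difference was −0.10 (95% interval −0.37 to 0.18), 0.12 within lane 4. Aars had 15.6, 17.2 and 18.9 FPKM in 15M-MR, against 14.5, 17.2 and 18.2 FPKM in 15M-CD, and its interval was among the narrowest of the list (0.01, −0.21 to 0.22). Nupr1 had 3.2, 7.71 and 11 FPKM in 15M-MR, against 3.91, 6.2 and 11.3 FPKM in 15M-CD (0.13, −0.30 to 0.56). Ddit3, the stress factor CHOP, averaged 7.7 ± 0.845 FPKM in 15M-MR and 8.33 ± 0.936 in 15M-CD (SD, n = 8 each), a difference of −0.10 (−0.34 to 0.13). The widest difference of the list belonged to the lipoprotein receptor Vldlr (−0.75, −1.67 to 0.17), with −0.29 within lane 4 and −1.18 without the 5 libraries that stood apart. Vldlr, not printed above, was also 1 of the 5 targets that held the letters, in 1 of its 2 promoters. The aminoacyl-tRNA synthetases (16 tested, median −0.04) and the unfolded protein response (18 tested, median −0.05) also had 0 genes with an unadjusted p under 0.05. These directions did not hold within lane 4, where 12 of 20 ATF4 targets were above 0 (median 0.07), 8 of 16 synthetases (median 0.02) and 12 of 18 genes of the unfolded protein response (median 0.17, against 4 of 18 above 0 over all libraries).

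**Figure D4:**
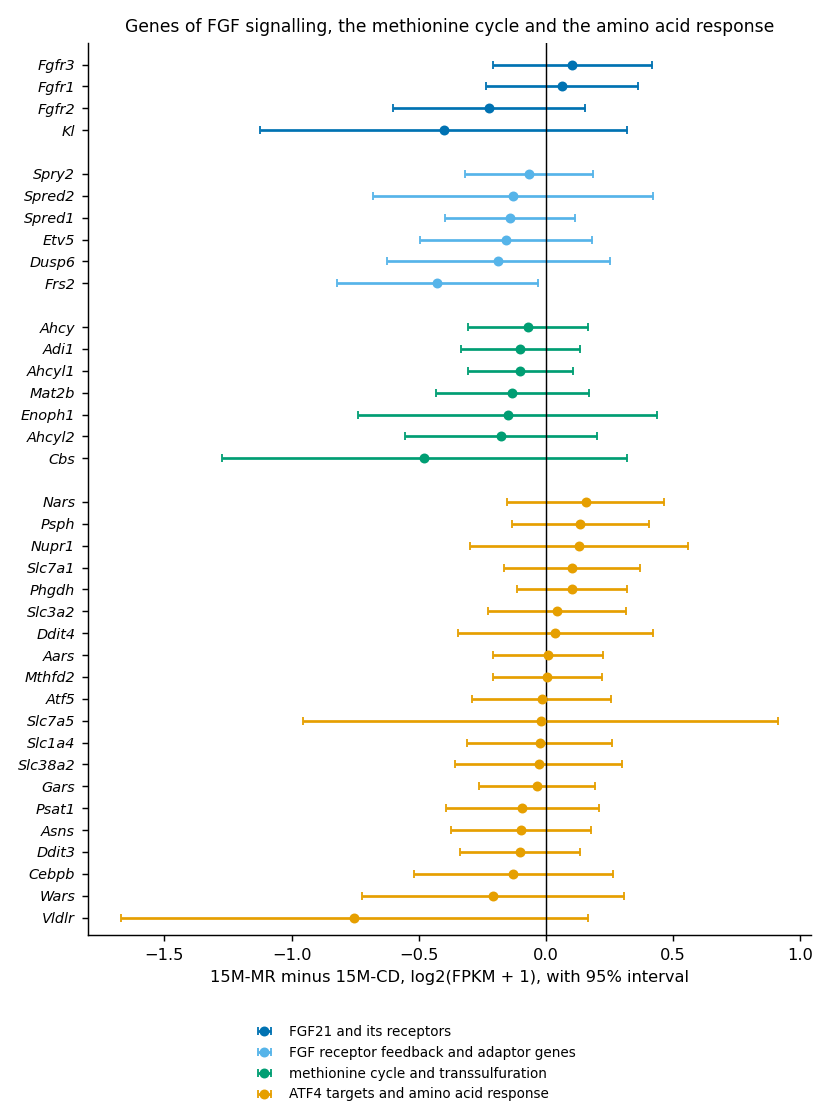
Difference 15M-MR minus 15M-CD in log2(FPKM + 1) with its 95% interval from limma (x axis) for the genes (y axis) of 4 lists, FGF21 and its receptors (4, Kl included), FGF receptor feedback and adaptors (6), methionine cycle (7 of the 8 tested) and ATF4 targets (20). Every interval except that of Frs2 includes 0, and most reach less than 0.5 to either side.

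Across 60 gene lists 696 genes were tested, 0 of them passed (limma adjusted p = 0.999 for each of those named here) and 9 had an unadjusted p under 0.05 (1.29%, against 2.23% of all loci). Among sensors of amino acids Depdc5, a subunit of the complex that restrains mTORC1, had 0, 2.08 and 4.83 FPKM as lowest, median and highest value in 15M-MR, against 0, 0.263 and 2.48 FPKM in 15M-CD (0.77, SE 0.355). Within lane 4 the difference of Depdc5 was 0.45, without an unadjusted p under 0.05. The other 21 genes of that list had none, and its median was −0.03 over all libraries and 0.07 within lane 4. Of 20 amino acid transporters 2 had one, in opposite directions. Slc6a17, a vesicular transporter of neutral amino acids in neurons, had 12.7, 17.5 and 22.5 FPKM in 15M-MR, against 4.54, 10.7 and 18.3 FPKM in 15M-CD, with all 8 libraries of 15M-MR above the mean of 15M-CD. Its difference was 0.71 (SE 0.285) but 0.13 within lane 4. Slc6a9, a glycine transporter, had 1.49, 2.88 and 9.49 FPKM in 15M-MR, against 2.26, 6.9 and 14.2 FPKM in 15M-CD, a difference of −0.84 (SE 0.388), with −1.23 within lane 4 and −0.39 without the 5 libraries that stood apart.

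Among the immediate early genes, which mark neuronal activity, Fos alone had an unadjusted p under 0.05. Fos, a transcription factor of active neurons, had 2.21, 2.74 and 3.12 FPKM as lowest, median and highest value in 15M-MR, against 2.52, 3.73 and 4.75 FPKM in 15M-CD. All 8 libraries of 15M-MR lay below the mean of 15M-CD, and the difference was −0.31 (SE 0.139), −0.11 within lane 4. Of the 16 immediate early genes tested 11 were below 0, with a median of −0.12, and within lane 4 13 were, with a median of −0.09. Of 26 glutamate receptor and postsynaptic genes, 25 genes of presynaptic release and 15 genes of GABA synapses, 0 had an unadjusted p under 0.05, with medians of 0.01, 0.05 and −0.07 over all libraries and −0.05, −0.03 and 0.12 within lane 4. Gabra2, a GABA-A receptor subunit, averaged 15.8 ± 5.01 FPKM in 15M-MR and 14.9 ± 4.94 in 15M-CD (SD, n = 8 each), a difference of 0.07 over all libraries and 0.42 within lane 4. In the circadian clock Arntl, which encodes the clock activator BMAL1, had 0.203, 1.98 and 4.27 FPKM in 15M-MR, against 2.92, 3.38 and 4.21 FPKM in 15M-CD. The single highest library was 15M-MR 15 and the other 7 of 15M-MR lay below all of 15M-CD. The difference was −0.66 (SE 0.24) and −0.67 within lane 4, and the other 16 clock genes had no unadjusted p under 0.05. Of all 17 clock genes tested 11 were below 0 (median −0.13), and within lane 4 16 were (median −0.12).

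Lists of energy and lipid metabolism had other medians within lane 4 than over all 16 libraries, and the cause was not tested. Of the 68 nuclear genes of oxidative phosphorylation 46 were above 0 over all 16 libraries (median 0.05, median interval reach 0.27), and 66 were within lane 4 (median 0.20), where the median of all loci was −0.02. With lane as a factor 67 of the 68 were above 0 (median 0.19), and without the 5 libraries that stood apart 55 were (median 0.06). Of the 67 cytosolic ribosomal protein genes 43 were above 0 (median 0.03) and 64 within lane 4 (median 0.09). Of 14 glycolysis genes 8 were above 0 (median 0.03) and 12 within lane 4 (median 0.16). Fatty acid oxidation turned its sign, with 4 of 16 above 0 (median −0.08) over all libraries and 11 of 16 within lane 4 (median 0.09). Of 17 genes of cholesterol synthesis 12 were above 0 (median 0.11), and within lane 4 16 of 17 were (median 0.23). The squalene epoxidase Sqle differed by 0.46 (SE 0.257), with 15M-CD 7 at 0.115 FPKM and the other 15 libraries between 5.88 and 10.7. The difference of Sqle was 1.204 within lane 4 and 0.19 without the 5 libraries that stood apart. Of 14 genes of insulin and IGF signalling, 11 of AMPK and energy sensing, 16 of fatty acid oxidation and 24 of autophagy and the lysosome, 0 had an unadjusted p under 0.05.

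Marker genes of hippocampal cells were present in every library. The 6 tested markers of glutamatergic neurons summed to between 858 and 1969 FPKM in 15M-MR and between 805 and 1679 in 15M-CD. Dentate granule markers had one of the lowest medians of the lists with 5 or more tested members (7 of 9 tested, −0.32, 6 of them below 0), and their sum had a median of 81 FPKM in 15M-MR (40.8 to 117) and 105 in 15M-CD (65.2 to 138). Prox1, the factor that sets granule cell identity, had 0.0468, 0.418 and 3.9 FPKM as lowest, median and highest value in 15M-MR, against 0.264, 3.52 and 6.35 FPKM in 15M-CD. The groups overlapped through 15M-MR 6 at 3.9 and 15M-CD 7 at 0.264, and the difference was −1.20 (SE 0.43), −1.01 within lane 4. Calb1, a calcium-binding protein of granule cells, differed by −0.32 (SE 0.227) over all libraries and by 0.05 within lane 4. Homeostatic microglia markers had the highest median of those lists (10 of 13 tested, 0.22, 8 above 0), and their sum was 63.8 to 109 FPKM in 15M-MR and 62.5 to 122 in 15M-CD. P2ry12, the microglial ADP receptor, had 1.6, 6.33 and 10.9 FPKM in 15M-MR, against 0.0477, 2.47 and 11.8 FPKM in 15M-CD (0.89, SE 0.469). Its difference was 0.27 within lane 4 and 1.38 without the 5 libraries that stood apart. Of the 3 tested markers of pericytes and smooth muscle, Vtn had an unadjusted p under 0.05 (0.43, SE 0.183), with 0.09 within lane 4.

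Markers of neighbouring tissue varied within both diets. Choroid plexus markers (5 of 11 tested, among them Ttr and Kl) summed to between 52 and 970 FPKM in 15M-MR and between 24.2 and 3528 in 15M-CD. Ttr, the transthyretin gene that is the defining marker of choroid plexus, had 30.1, 83.7 and 900 FPKM as lowest, median and highest value in 15M-MR, against 12.6, 140 and 3356 FPKM in 15M-CD (exact permutation p = 0.651, adjusted p = 0.814). All 5 had the lower mean in 15M-MR (median −0.33), but within lane 4 only 1 of 5 did. Markers of neocortex (4 of 8 tested) summed to between 21 and 31.9 FPKM in 15M-MR and between 22.8 and 30 in 15M-CD, those of striatum (3 of 8) to between 39.8 and 59.8 in 15M-MR and 40.9 and 74.6 in 15M-CD, and those of thalamus and habenula (5 of 9) to between 28.8 and 61 in 15M-MR and 19.5 and 62.4 in 15M-CD. Myelin markers (12 of 15) summed to a median of 834 FPKM in 15M-MR and 980 in 15M-CD. Their part in the differences of single genes was not tested.

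**Figure D5:**
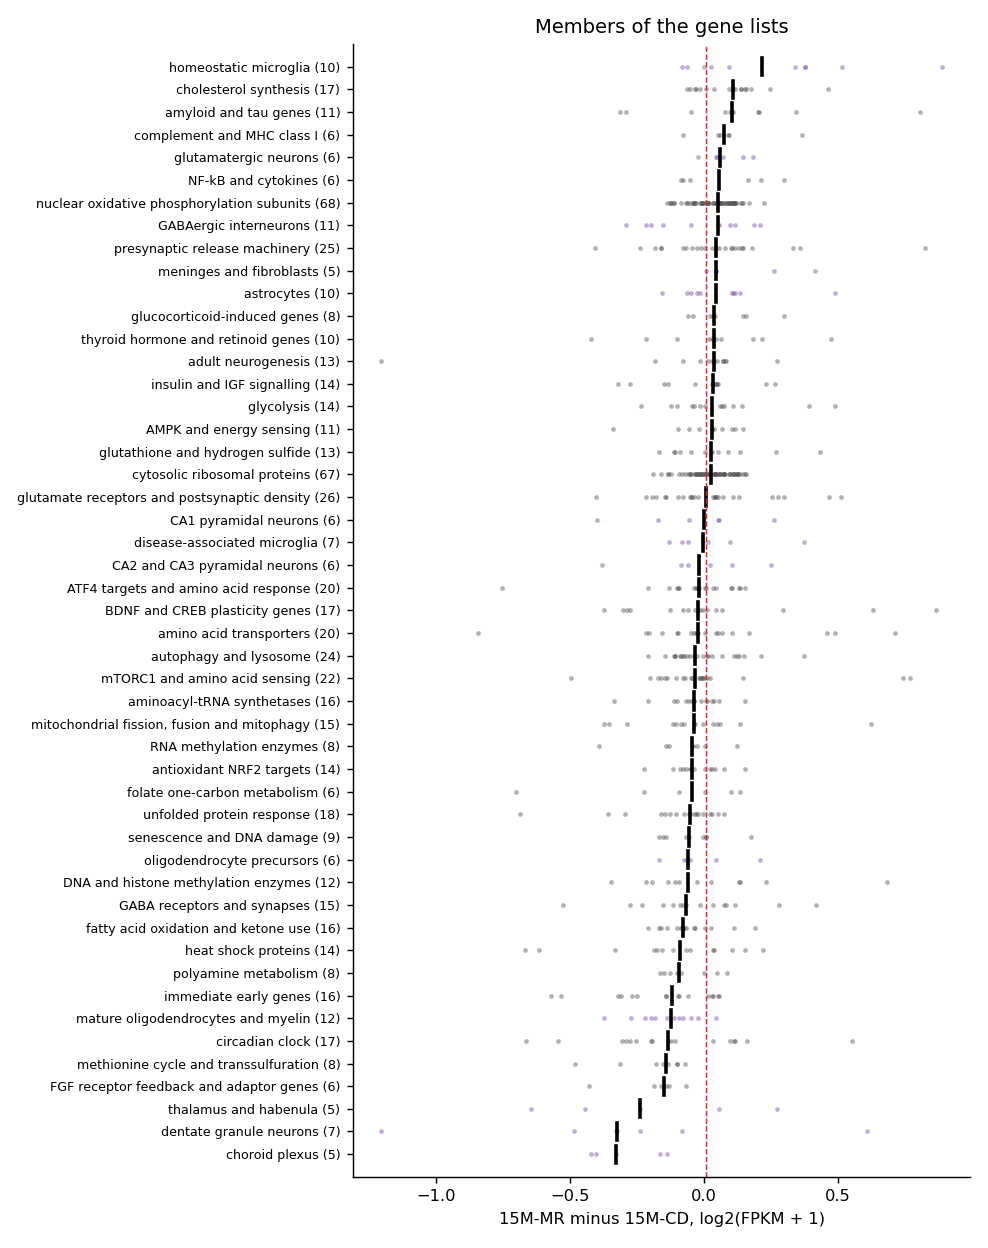
Differences 15M-MR minus 15M-CD in log2(FPKM + 1) (x axis) of the members of the 49 lists with 5 or more tested members (y axis, number tested in brackets), grey for pathways and violet for cell type or tissue markers, with 1 dot per gene and a black bar at the median. The dashed line is the median of all loci, 0.0079, and the medians of the lists run from −0.33 to 0.22 over all 16 libraries, with 27 of the 49 of the other sign within lane 4.

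The effect of the diet at 15 months was set against its effect at 5 and at 18 months, which share no library with it. At those ages, as at 15 months, most MR and most CD libraries carried different lane labels, so diet and lane were not separated. No locus passed the test of either difference of effects in limma (0% called, smallest adjusted p = 0.890 against 5 months and 0.877 against 18 months). At an unadjusted p under 0.05 there were 402 loci against 5 months (3.24%) and 293 against 18 months (2.36%). Of the 276 loci with an unadjusted p under 0.05 at 15 months, 127 had the same sign at 5 months (46%, against 43.9% of all loci) and 162 at 18 months (58.7%, against 58.6%). Of the 276, 8 had an unadjusted p under 0.05 and the same sign at 5 months, and 9 at 18 months. The share of all loci with such a p at those ages is not given, so these counts are not read as an overlap.

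The genes that led the contrast with 5 months had opposite signs at the 2 ages. Choosing genes by the difference of effects favours such signs, here and against 18 months. The diet difference of Chn1 was −1.13 at 15 and 0.79 at 5 months (difference of effects −1.91, SE 0.538, limma adjusted p = 0.890), and that of Arntl was −0.66 at 15 and 0.60 at 5 months (−1.26, SE 0.359, limma adjusted p = 0.890). Arntl at 5 months had 2.27 to 3.68 FPKM in 5M-MR and 0.19 to 4.35 in 5M-CD. Plvap, a protein of the diaphragms of leaky vessels, differed by −0.89 at 15 and 0.88 at 5 months, and Slc37a4, the glucose-6-phosphate transporter, by 0.52 at 15 and −0.71 at 5 months. Tubb5, a beta-tubulin on 3 loci, and Kif1b, a kinesin on 2, also led, each uncertain because reads could be divided between its loci. Against 18 months Ppox led, with 1.21 at 15 and −1.46 at 18 months (difference of effects 2.67, SE 0.638, limma adjusted p = 0.877), followed by Fkbp5 with −1.36 at 15 and 0.96 at 18 months (−2.32, SE 0.59, limma adjusted p = 0.906). Brsk2, a kinase of neuronal polarity, differed by 0.49 at 15 and −0.61 at 18 months, Mef2c, a transcription factor of neurons, by −0.84 at 15 and 1.26 at 18 months, and Clstn2, a synaptic calsyntenin, by 0.58 at 15 and −1.53 at 18 months. Znrd1, a subunit of RNA polymerase I, stands on 4 loci and is uncertain.

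The contrasts of diet and of age at 15 months share the 15M-CD libraries, so their values are given side by side only. From 5 to 15 months in CD, 18 of the same 12403 loci were called (0.145%). Most 5M-CD libraries carried a lane label that no 15M-CD library had, so age and lane were not separated either. Fkbp5 differed by 0.77 between 15M-CD and 5M-CD and by −1.36 between 15M-MR and 15M-CD, and Fos by −0.94 between 15M-CD and 5M-CD and by −0.31 between 15M-MR and 15M-CD.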

How the data were processed

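Hippocampal RNA was sequenced in 44 libraries of 6 groups, of which 16 (8 of 15M-MR and 8 of 15M-CD) form the comparison. The authors deposited 1 table of FPKM per assembled locus. Trimmomatic 0.38, HISAT2, StringTie 1.3.4d and the build GRCm38.p6 are named in the submitters' processing notes, with no order of steps or settings. FPKM carry no read counts, so no count test was run and no counting interval is given.

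From the deposited FPKM, log2(FPKM + 1) was fitted with limma 3.58.1 in R 4.3.3, with a mean for each of the 6 groups over all 44 libraries, a trend in the prior variance and Benjamini-Hochberg adjustment over 12403 loci (1 FPKM or more in 6 or more libraries of 15 months). A locus was called at an adjusted p under 0.05. The fit was checked on simulated data. Library measures were compared by 2-sided exact permutation tests over 12870 splits. Nothing in the labels says that libraries of a group came from separate mice, so p-values measure the spread between these libraries, which may be partly technical. The replicate numbers that both diets share did not pair the libraries. Figures used Python 3.11.15, NumPy 2.4.6, pandas 2.3.3 and matplotlib 3.10.9.

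Members and gene lists were chosen with earlier results of these data known. Named genes were up to 15 in each direction past the test, filled to 10 by the smallest unadjusted p where fewer than 10 passed. Loci without exactly 1 symbol were passed over, 10 on the higher and 1 on the lower side. The 6 genes with the smallest p for each contrast of effects, up to 4 genes with the smallest p in each list, and all tested genes of the lists of FGF21 and its receptors and of the methionine cycle were also eligible. Asns, Aars, Nupr1, Gabra2, Ddit3, Sgk1, Mbp and Ttr were added as examples after their values were known. Some of the genes counted are not reported here by name. Symbols on several loci were kept with a remark among the leading genes and left out of the counts of the gene lists.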

Additional observations from a re-analysis of the deposited data

Results flagged for a closer look

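Of 86 groups of 8 libraries examined, 12 held 1 library far from the other 7, by a gap to its nearest neighbour of more than 0.526 of the group's range. Chance gives about 1 in 20 only for normally distributed values, which FPKM need not be, so 12 of 86 is not read as an excess. Not every named gene was among these groups. In 15M-MR the flagged values were Efr3b at 1.95 FPKM in 15M-MR 3, Gh at 1562 FPKM in 15M-MR 7, Poli at 0.156 FPKM and Sln at 2.76 FPKM in 15M-MR 15 and Ttr at 899.5 FPKM in 15M-MR 15. In 15M-CD they were Ccdc92 at 18.9 FPKM and Fkbp5 at 0.561 FPKM in 15M-CD 7, Kl at 3.88 FPKM and Ttr at 3356 FPKM in 15M-CD 2, Aars at 14.5 FPKM in 15M-CD 6 and Nupr1 at 11.3 FPKM in 15M-CD 8. The sum of FPKM was 282327 in 15M-CD 2.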

How the results depend on the processing

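Between 15M-MR and 15M-CD, 0 loci passed limma's adjusted test under most settings. With the shared replicate number as a block 1 locus passed (adjusted p = 0.00692), with array weights 1 (adjusted p = 0.0232, with 1367 loci at an unadjusted p under 0.05) and leaving out 1 library at a time gave 0 to 1, the 1 being without 15M-MR 15. It was the same locus without a gene symbol each time. The numbers did not pair the libraries: the correlations of deviations for numbers 2, 3, 4, 6, 7 and 8 were 0.26, −0.20, 0.05, −0.07, −0.18 and 0.21.

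For the effect at 15 against that at 5 months, lane as a factor gave 1 locus (C1qtnf5), the replicate block 1 (Tubb5), array weights 2 (Tubb5 and a locus with 2 symbols) and the first principal component as a covariate 1 (Tubb5). Against 18 months, lane as a factor gave 1 (Nuak1), the replicate block 1 and the share without a symbol as a covariate 12. Every other setting gave 0, also leaving out each library. The settings that use the first principal component were chosen after seeing the data. The difference of Ptp4a2 was −0.028 within lane 4, against 0.43 over all 16 libraries. The cause was not tested. Among values whose interval included 0, signs changed often: of 223, 84 with lane as a factor and 77 within lane 4. Of 49 gene list medians, 28 changed sign with lane as a factor, 27 within lane 4 and 9 without the 5 libraries that stood apart. Depth is unknown, and 15M-MR has no library on lane 3, so lane could be held constant only with 3 libraries of 15M-CD. Of these 3, 2 stood apart on the first principal component, against 3 of 8 in 15M-MR.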
